A study of Mus musculus with 24 samples.

Results

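Transcripts of 8 genes of the Nodal and Activin pathway were followed in mouse embryonic stem cells driven towards definitive endoderm, with and without a disrupted Setd3 gene. The 8 were chosen by name for their part in the pathway: the ligand gene Nodal, the secreted antagonist genes Lefty1, Lefty2 and Fst, the co-receptor gene Tdgf1, the receptor gene Acvr2b, the transcription factor gene Foxh1 and the inhibitory Smad gene Smad7. The choice of these 8, and of all lists below, was made with earlier results of these data known. All 8 were found among the 55401 genes of the count table, and all 8 were among the 17144 genes with enough counts to be tested. There were 24 RNA-seq libraries of CJ9 mouse embryonic stem cells in 8 groups of 3. The Setd3 knock-out groups were sampled at days 0, 2, 3 and 4 of the differentiation, and the wild-type groups at the same days. The knock-out was made with CRISPR-Cas9 and is 1 line, so effects of that line and of the Setd3 disruption cannot be told apart. At day 0 the cells of both genotypes had been kept with LIF on inactivated embryonic fibroblasts. From day 0 to day 2 both were without fibroblasts in serum-free differentiation medium with no Activin A named, and from day 2 both were replated in that medium with Activin A. The labels give no culture without Activin A at days 3 and 4, so a change after day 2 follows the addition of Activin A, the replating and a further day of culture together.

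Nodal and the Activins are TGF-beta family ligands that bind the same type II and type I serine-threonine kinase receptors, which phosphorylate Smad2 and Smad3; these enter the nucleus with Smad4 and act on target genes with partners such as Foxh1. Nodal needs an EGF-CFC co-receptor, of which Tdgf1 (Cripto) is one, whereas Activin A does not, so Activin A is widely used in culture in place of Nodal. Nodal, Lefty1, Lefty2 and Smad7 are themselves targets of the pathway in the mouse embryo: Nodal feeds forward on its own gene, the Lefty proteins block Nodal and its co-receptor, and Smad7 blocks the receptors from inside the cell. Follistatin, the product of Fst, binds Activins outside the cell and neutralises them.

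Both Lefty genes and Tdgf1 have near copies, which bears on what their counts mean, and for Tdgf1 a stretch is shown. On GRCm38, Lefty2 (ENSMUSG00000066652) lies on chromosome 1 at 180893108 to 180899103 and Lefty1 (ENSMUSG00000038793) at 180935022 to 180938400, both on the plus strand. Their coding sequences, each of 1104 bases, were identical at 91.85% of positions, and 26.64% of all 50-base stretches of one occurred unchanged in the other. Tdgf1 (ENSMUSG00000032494, chromosome 9, 110939603 to 110946158, minus strand) has a processed pseudogene, Tdgf1-ps1, on chromosome 16 at 3730510 to 3731022. The 513 bases of the pseudogene differed from the Tdgf1 coding sequence at 7 positions, and 50.86% of 50-base stretches were shared. The first 60 bases of each follow, 5′ to 3′, with the 1 base that differs in capitals.
Tdgf1: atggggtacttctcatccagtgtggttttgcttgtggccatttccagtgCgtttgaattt
Tdgf1-ps1: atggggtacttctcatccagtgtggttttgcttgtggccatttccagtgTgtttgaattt
The sources at hand do not say how reads that map to several places were treated, so some counts of Lefty1 and Lefty2, and of Tdgf1 and its pseudogene, may belong to the other copy. Tdgf1-ps1 was listed with 6.33% to 14.8% as many counts as Tdgf1 in each library, and followed it (Pearson r = 0.992 of log2 CPM over the 24 libraries, which share day and genotype).

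Nodal (ENSMUSG00000037171) lies on chromosome 10 at 61417972 to 61425338 and Acvr2b (ENSMUSG00000061393) on chromosome 9 at 119402118 to 119434995, both on the plus strand. Fst (ENSMUSG00000021765) lies on chromosome 13 at 114452290 to 114458951 and Foxh1 (ENSMUSG00000033837) on chromosome 15 at 76668225 to 76669948, both on the minus strand. The antisense gene Gm47040 overlaps exons of Fst and held 6 to 22 counts per group of 3 libraries, against 1054 to 19601 counts of Fst. RefSeq promoter windows of 300 bases (build GRCm38.p6) were at hand for Nodal, Tdgf1 and Acvr2b. Those of Nodal and Tdgf1, the ligand and its co-receptor, are shown because both genes moved more than 4-fold between days 2 and 3 while only Tdgf1 did so to a different extent in the 2 genotypes. Capitals mark CAGAC, the letters of a Smad-binding element.
Nodal promoter, chr10:61417722-61418021, plus strand: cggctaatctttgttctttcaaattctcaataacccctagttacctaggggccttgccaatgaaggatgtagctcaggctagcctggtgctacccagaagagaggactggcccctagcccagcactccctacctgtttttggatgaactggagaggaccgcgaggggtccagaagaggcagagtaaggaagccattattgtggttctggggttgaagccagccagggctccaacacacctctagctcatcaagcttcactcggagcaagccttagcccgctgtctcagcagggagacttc
Tdgf1 promoter, chr9:110946109-110946408, minus strand: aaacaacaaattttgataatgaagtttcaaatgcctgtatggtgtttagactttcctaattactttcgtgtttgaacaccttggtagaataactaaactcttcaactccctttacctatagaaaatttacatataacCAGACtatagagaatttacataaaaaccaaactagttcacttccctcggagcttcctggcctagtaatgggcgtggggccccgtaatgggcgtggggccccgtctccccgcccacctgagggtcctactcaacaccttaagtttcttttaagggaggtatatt
On either strand, CAGAC occurred 0 times in the Nodal window and 1 time each in those of Tdgf1 and Acvr2b, and it was present in 49.6% of all 32851 promoter windows of this length. The Foxh1 motif AATCCACA (0.855% of windows), its looser form AATNCACA (3.6%), which includes it, and the palindromic Smad motif GTCTAGAC (0.213%), which holds the letters AGAC but not CAGAC, were in none of the 3 windows.

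Libraries held 18531390 to 24244958 gene counts, and levels are given in CPM, a unit that sets each count against its library size after TMM scaling. Setd3 itself was at 46.3 ± 3.49, 30.9 ± 2.62, 31.6 ± 2.15 and 29.95 ± 1.01 CPM in the knock-out at days 0, 2, 3 and 4, against 122 ± 4.49, 97.5 ± 0.62, 120.2 ± 4.42 and 124 ± 3.71 CPM in the wild-type (SD, n = 3). The edited exon is not named in the labels. The pluripotency marker Pou5f1 was at 421 ± 9.87 CPM in knock-out and 441 ± 38.6 CPM in wild-type stem cells. Sox2 was listed at 0 in all 24 libraries. The counting settings are not stated, so that 0 does not show that the transcript was absent. By day 4 the endoderm marker Sox17 stood at 7.23 ± 3.81 CPM in the knock-out and 217 ± 11.2 CPM in the wild-type. Summed over 8 definitive endoderm markers, of which none was at 0, the range at day 4 was 1449 to 1780 CPM in the knock-out and 4234 to 4422 CPM in the wild-type. All 8 were lower in the knock-out at day 4, where 27.6% of all tested genes were. In the knock-out 6 of the 8 had risen since day 3, where 5.76% of all tested genes had. Much of the sum was Trh, at 1449 ± 134 CPM in the knock-out and 2517 ± 110.3 CPM in the wild-type. Summed over 8 primitive streak markers, of which none was at 0, the range at day 3 was 82.9 to 102.1 CPM in the knock-out and 1066 to 1915 CPM in the wild-type. All 8 were lower in the knock-out, where 20.5% of all tested genes were. Summed over 8 naive pluripotency markers, of which none was at 0, the range at day 2 was 236 to 297 CPM in the knock-out and 54.9 to 92.7 CPM in the wild-type. There 6 of the 8 were higher in the knock-out, beside 16.2% of all tested genes. At day 4 the order of the naive sums was reversed, at 17.7 to 18.2 CPM in the knock-out and 42.9 to 70.0 CPM in the wild-type. At that day 2 of the 8 were higher and 3 lower in the knock-out, beside 26.3% and 27.6% of all tested genes. The part of these differences in the results at those days was not tested. In bulk RNA, fewer cells with a transcript cannot be told apart from less transcript in each cell, and this holds for every value below. The labels do not say that the 3 libraries of a group were separate cultures, so p-values measure the spread between these samples, which may be technical. Log2 fold changes and adjusted p-values come from the quasi-likelihood test of edgeR, adjusted by Benjamini-Hochberg over all tested genes, with 0.05 as threshold; ± beside a log2 fold change is its size divided by the root of the F statistic.

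The first question is whether these genes still move in cells without normal Setd3 once Activin A is given. In the knock-out 7 of the 8 did: Lefty1, Nodal, Smad7, Lefty2, Tdgf1, Fst and Foxh1 were higher at day 3 than at day 2 in the knock-out, none was lower, and Acvr2b did not pass the test. Over all tested genes 14.7% were higher and 14.4% lower in that step (29.1% in all). In the wild-type the same comparison gave 7 higher and 0 lower among the 8, where 21.4% of tested genes were higher and 21.1% lower (42.4% in all). The median log2 fold change of the 8 was 2.76 in the knock-out and 3.56 in the wild-type, against -0.01 and 0.01 over all tested genes.

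At Tdgf1 and Fst the rise was smaller in the knock-out than in the wild-type. The difference between the genotypes' changes, tested as an interaction term, passed for 2 of the 8, both with a smaller rise in the knock-out: Tdgf1 (-2.06 ± 0.25, adjusted p = 3.77e-05) and Fst (-2.19 ± 0.49, adjusted p = 0.00781). None of the 8 rose more in the knock-out by this test. Over all tested genes, 4.33% passed with the knock-out's change below the wild-type's and 6.61% with it above (10.9% in all). For Nodal the difference was 0.19 on the log2 scale, with a 95% interval of -0.31 to 0.70, and for Smad7 it was 0.06, with an interval of -0.39 to 0.50. Lefty1 (0.92, interval -0.17 to 2.01) and Lefty2 (-0.79, interval -1.79 to 0.21) had wider intervals, and differences within those bounds are compatible with these libraries.

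**Figure D1:**
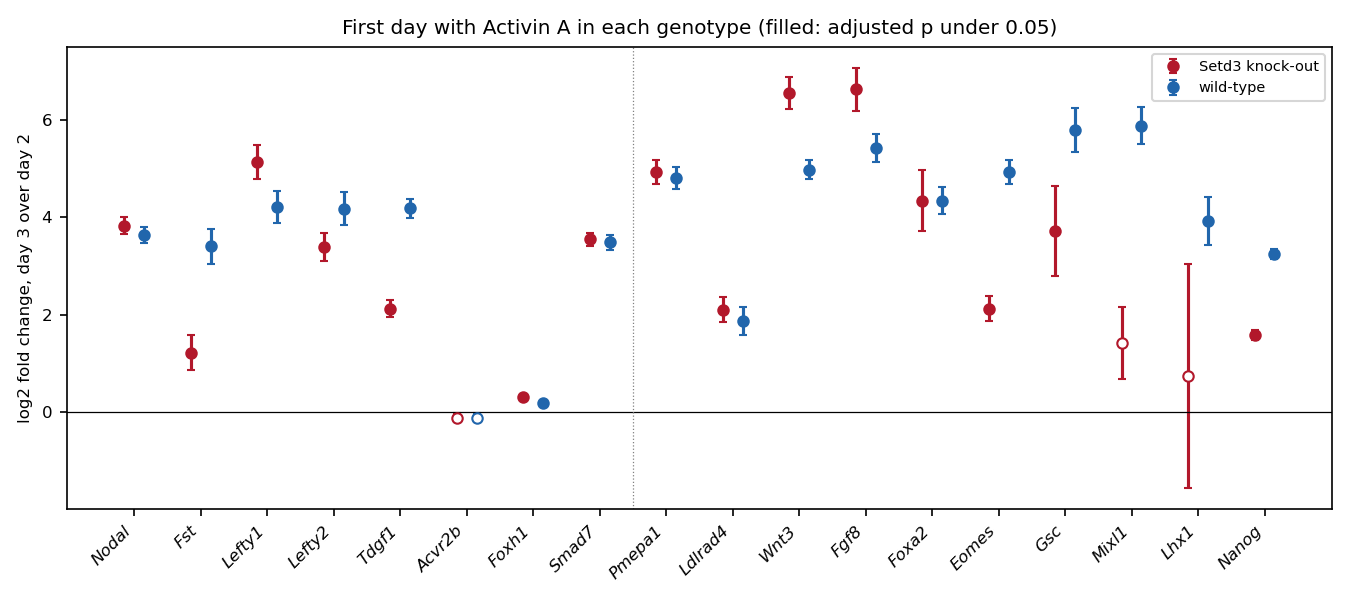
Log2 fold change of day 3 over day 2 (vertical axis) for the 8 genes, left of the dotted line, and for 10 other feedback and target genes, right of it, in the knock-out (red) and the wild-type (blue); bars are the fold change's size over the root of F, and filled points passed the adjusted threshold. Nodal, Smad7 and Pmepa1 have overlapping bars in the genotypes, while Fst, Tdgf1, Eomes, Mixl1 and Nanog lie lower in the knock-out.

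Between days 3 and 4, 5 of the 8 genes changed differently in the genotypes. Of the 8, only Lefty1 passed as higher in the knock-out and none as lower, where 5.76% of tested genes were higher and 5.83% lower. Tdgf1, at 0.53 ± 0.17 in the knock-out, just missed the threshold (adjusted p = 0.0516). It passed in 2 of the 5 alternative settings that kept every library of the comparison. Nodal passed as higher and Foxh1 as lower in 1 of these settings each. In the wild-type 3 rose (Lefty1, Lefty2 and Foxh1) and 2 fell (Fst and Nodal), where 22.4% were higher and 23.1% lower (45.5% in all). The difference between the genotypes' changes passed for 5 of the 8: it was positive for Fst, Nodal and Tdgf1, where 12.6% of tested genes passed in that direction, and negative for Lefty2 and Foxh1, where 11.2% did. Over the whole time with Activin A, day 4 against day 2, 7 of the 8 were higher in the knock-out (all but Acvr2b; 20% of tested genes higher, 19.8% lower, 39.8% in all) and 6 in the wild-type (all but Acvr2b and Fst; 29.4% higher, 28.9% lower, 58.4% in all). Over that whole time the difference passed upwards for Nodal and Fst (16.4% of tested genes) and downwards for Lefty2, Tdgf1 and Foxh1 (15%), where 31.4% of tested genes passed in either direction.

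Before Activin A, 5 of the 8 genes fell and 2 rose in each genotype. From day 0 to day 2, Nodal, Lefty1, Lefty2, Tdgf1 and Smad7 were lower and Foxh1 and Acvr2b higher in the knock-out, where 29.5% of tested genes were higher and 30.6% lower (60.1% in all). The same 5 genes fell and the same 2 rose in the wild-type, where 32% were higher and 31.8% lower (63.8% in all). Tdgf1 was the 1 gene whose change differed between the genotypes (0.89 ± 0.25, adjusted p = 0.0395; 4.27% of tested genes differed in that direction, 3.07% in the other and 7.34% in all). That call was lost when any 1 of 10 of the 12 libraries was left out, all but knock-out replicate 3 of either day, with adjusted p of 0.051 to 0.101, and also without the filter on low counts (adjusted p = 0.0667) and when only the 12 libraries were fitted (adjusted p = 0.112). Without wild-type replicate 3 of day 2, the difference passed for Nodal (-0.91, adjusted p = 0.000563) and Lefty1 (-1.71, adjusted p = 0.0388), and no longer for Tdgf1.

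At single days the knock-out differed from the wild-type at 3 to 5 of the 8 genes. At day 0, 3 were higher and 0 lower, where 10.6% of tested genes were higher and 10.5% lower. At day 2, 3 were higher and 1 lower, where 16.2% and 15.7% were. At day 3, 2 were higher and 3 lower, where 20.8% and 20.5% were. At day 4, 1 was higher and 4 lower, where 26.3% and 27.6% were. With 1 library of the day left out, 0 to 4 were higher and 0 to 1 lower at day 0, and 1 to 2 higher at day 3. In such fits at day 4, 1 to 2 were higher and 2 to 3 lower. In either direction the counts were 3, 4, 5 and 5 of 8, beside 21.1%, 32%, 41.2% and 54% of all tested genes, so at day 4 in particular the count was near the background. The genes are therefore described one by one.

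**Figure D2:**
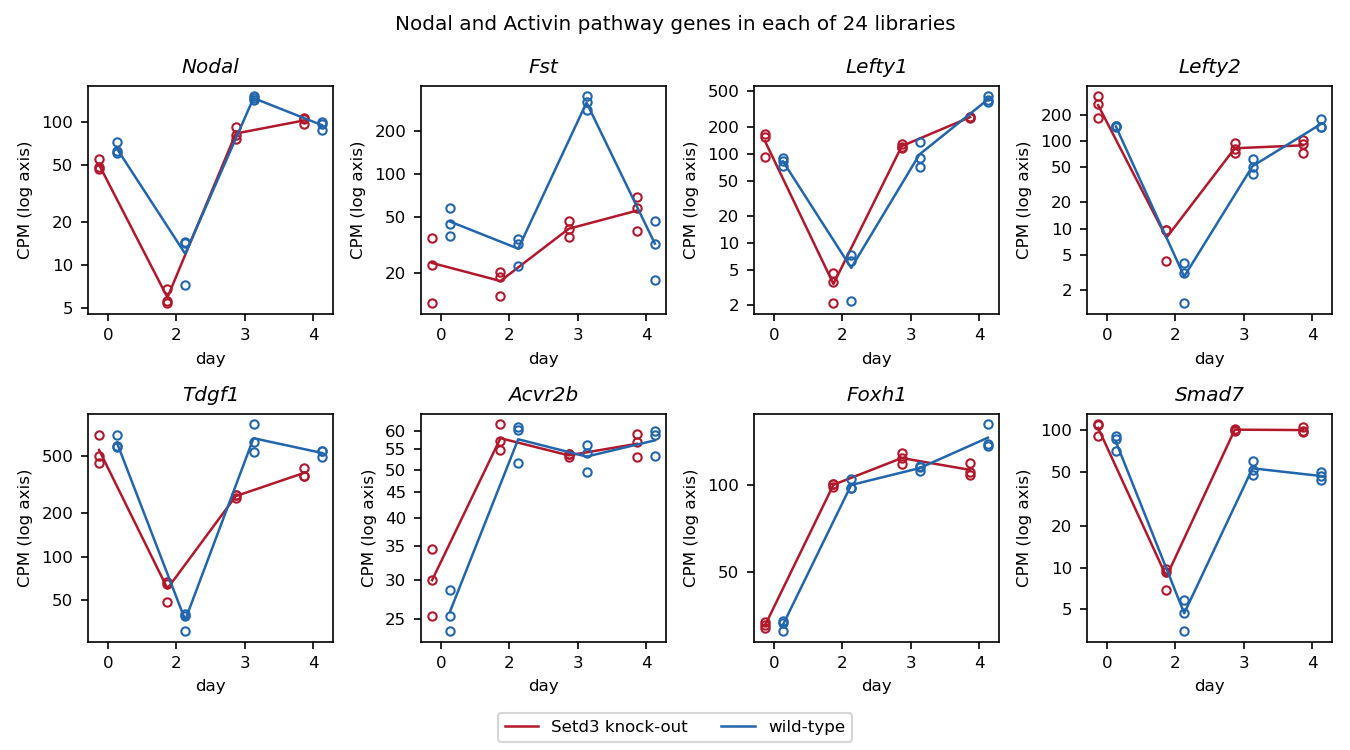
CPM on a log axis (vertical) against day (horizontal) for each of the 8 genes, with 1 open circle per library and lines through group means, knock-out in red and wild-type in blue. Nodal, both Lefty genes, Tdgf1 and Smad7 dip at day 2 and return at day 3 in both genotypes, whereas Fst at day 3 has 36.0 to 46.3 CPM in the knock-out and 278 to 349 CPM in the wild-type.

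Nodal, the ligand gene, stood lower in the knock-out at days 2 and 3 and level with the wild-type at day 4. At day 2 its libraries held 5.53, 6.78 and 5.34 CPM in the knock-out, against 14.5, 14.1 and 7.15 CPM in the wild-type. The knock-out libraries all lay below the wild-type ones, and wild-type replicate 3 was the closest to them. The log2 fold change was -1.02 ± 0.20 (adjusted p = 0.000548). At day 3 Nodal reached 81.1, 76.3 and 93.0 CPM in the knock-out, against 144, 148 and 152 CPM in the wild-type, with no overlap. Its knock-out level was then 56.4% of the wild-type's (-0.83 ± 0.14, adjusted p = 8.94e-05). Both genotypes had thus gained Nodal transcripts by a like factor since day 2, 14.2-fold in the knock-out (3.83 ± 0.18, adjusted p = 8.62e-12) and 12.4-fold in the wild-type (3.63 ± 0.16, adjusted p = 2.58e-12). At day 4 the libraries held 105, 97.7 and 107 CPM in the knock-out, against 101, 98.1 and 88.0 CPM in the wild-type, and the groups overlapped. That fold change was 0.11 (95% interval -0.18 to 0.40, adjusted p = 0.531). The wild-type had fallen since day 3 (-0.63 ± 0.14, adjusted p = 0.00092) and the knock-out, at 0.31 ± 0.14, did not pass (adjusted p = 0.174); the difference between these changes was 0.94 ± 0.20 (adjusted p = 0.00156). In stem cells at day 0, Nodal was at 50.3 ± 4.57 CPM in the knock-out and 65.4 ± 6.83 CPM in the wild-type (-0.38 ± 0.14, adjusted p = 0.0682; 0.0371 when only that day was fitted and 0.033 in DESeq2's Wald test).

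Ordered by level, wild-type cells of day 3 held the most Nodal, clear of all other groups. They were followed by the knock-out at day 4, the wild-type at day 4 and the knock-out at day 3, of which neighbours overlapped. Both day 0 groups came next and both day 2 groups last, each separate from its neighbour. The ranges of Nodal thus did not overlap between the genotypes at days 0, 2 and 3.

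Lefty1 and Lefty2 encode the paired feedback antagonists of Nodal. Lefty1 was almost absent at day 2, with 3.67, 4.64 and 2.10 CPM in the knock-out and 7.29, 6.22 and 2.23 CPM in the wild-type. At day 3 it was at 120, 128 and 117 CPM in the knock-out, against 134.5, 89.5 and 71.0 CPM in the wild-type. The groups overlapped at both days, and the wild-type libraries of day 3 were the more scattered. The rise between them was 35.1-fold in the knock-out (5.13 ± 0.35, adjusted p = 7.98e-09) and 18.7-fold in the wild-type (4.22 ± 0.33, adjusted p = 2.29e-08). At day 4 Lefty1 stood at 258, 251.5 and 260.5 CPM in the knock-out, against 439, 395 and 380 CPM in the wild-type, without overlap. It was lower in the knock-out (-0.66 ± 0.24, adjusted p = 0.0311). That call was lost when any 1 of the day 4 libraries except wild-type replicate 3 was left out, with adjusted p of 0.0581 to 0.0902, and also without the filter (adjusted p = 0.0588) and in DESeq2's Wald test (adjusted p = 0.0719). Its rise between days 3 and 4 was 1.08 ± 0.25 in the knock-out (adjusted p = 0.00925) and 2.04 ± 0.26 in the wild-type (adjusted p = 4.49e-06), and the difference of -0.96 ± 0.35 missed the threshold (adjusted p = 0.0561; 0.0114 without wild-type replicate 1 of day 3).

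Lefty2 changed its rank between the genotypes over the course. At day 2 its 9.74, 9.63 and 4.24 CPM in the knock-out lay above the 3.12, 4.01 and 1.40 CPM of the wild-type (1.47 ± 0.40, adjusted p = 0.0103). At day 3 its 81.2, 93.6 and 72.6 CPM in the knock-out were above the wild-type's 62.5, 50.6 and 41.6 CPM (0.68 ± 0.24, adjusted p = 0.0325). At day 4 the order was the other way round, with 72.4, 101.6 and 93.2 CPM in the knock-out, against 145, 179 and 143 CPM in the wild-type (-0.81 ± 0.23, adjusted p = 0.0076). The groups overlapped at none of the 3 days. Between days 3 and 4 Lefty2 rose 3.02-fold in the wild-type (1.59 ± 0.24, adjusted p = 3.52e-05), while the knock-out's change of 0.11 ± 0.24 did not pass (adjusted p = 0.824). The difference between these changes was -1.48 ± 0.34 (adjusted p = 0.00363), and over days 2 to 4 it was -2.27 ± 0.46 (adjusted p = 0.00111). The day 3 call between genotypes was lost without replicate 1 or 2 of the knock-out or replicate 2 or 3 of the wild-type (adjusted p = 0.0649 to 0.125), without the filter on low counts (adjusted p = 0.0595) and in DESeq2's Wald test (adjusted p = 0.0514). The day 2 call was lost when only the 6 libraries of that day were fitted (adjusted p = 0.0781).

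At day 0, in stem cells on fibroblasts, both Lefty genes were higher in the knock-out. Lefty1 was at 92.0, 152 and 168 CPM in the knock-out, against 90.2, 83.5 and 73.4 CPM in the wild-type (0.74 ± 0.25, adjusted p = 0.046). Lefty2 was at 185, 260.5 and 322 CPM in the knock-out, against 146, 147 and 145 CPM in the wild-type (0.81 ± 0.23, adjusted p = 0.0188). Replicate 1 of the knock-out was the lowest of its group for both genes. Both calls were lost without knock-out replicate 2 or 3 or without any 1 of the wild-type libraries, with adjusted p of 0.0826 to 0.151 for Lefty1 and 0.0501 to 0.0825 for Lefty2, and when only day 0 was fitted (adjusted p = 0.119 for Lefty1 and 0.055 for Lefty2). The Lefty1 call was also lost with DESeq2's size factors (adjusted p = 0.0502), without the filter (adjusted p = 0.0859) and in DESeq2's Wald test (adjusted p = 0.0808). Over 10 fibroblast marker genes, none of them at 0, the summed level was 2450, 1729 and 903 CPM in the knock-out replicates 1, 2 and 3 of day 0, against 919, 1603 and 1369 CPM in the wild-type. The fibroblast sum ran opposite to both Lefty genes within the knock-out; its part in these results was not tested.

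The balance of the 2 genes shifted during differentiation. Per base of exon, Lefty1 counts were 0.79 ± 0.07, 0.67 ± 0.10, 2.21 ± 0.18 and 4.37 ± 0.83 times those of Lefty2 in the knock-out at days 0, 2, 3 and 4 (SD, n = 3). In the wild-type the ratio was 0.84 ± 0.08, 2.71 ± 0.66, 2.79 ± 0.36 and 3.91 ± 0.60. Lefty2 was thus the more abundant of the pair per length in stem cells of both genotypes and in the knock-out at day 2, and Lefty1 in all other groups. At day 2 the knock-out ratios of 0.56 to 0.73 and the wild-type ratios of 2.31 to 3.47 did not overlap; they rest on 206 and 468 counts of Lefty1 and Lefty2 in the 3 knock-out libraries and on 313 and 168 in the wild-type ones. At days 0 and 4 the ranges overlapped, and at day 3 the knock-out's 2.04 to 2.39 lay below the wild-type's 2.53 to 3.20. No test was run on the ratio, and how reads shared between the near copies affect it is not known without the counting settings.

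**Figure D3:**
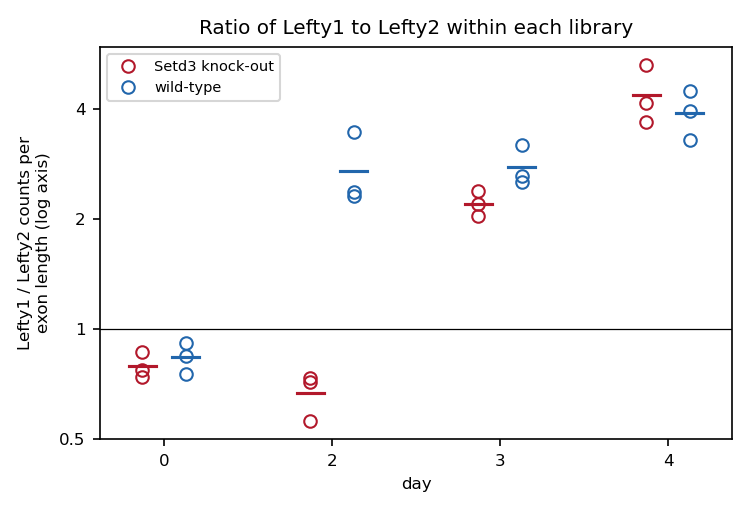
Ratio of Lefty1 to Lefty2 counts per base of exon (vertical, log axis) in each library against day (horizontal), knock-out in red and wild-type in blue, with a bar at each group mean and a line at a ratio of 1. The groups lie apart at day 2, at 0.67 in the knock-out and 2.71 in the wild-type on average, and overlap at day 4.

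Fst, which encodes follistatin, showed the widest gap between the genotypes among the 8. At day 3 its libraries held 41.0, 36.0 and 46.3 CPM in the knock-out, against 349, 319 and 278 CPM in the wild-type. The groups lay far apart, and the knock-out stood at 13.04% of the wild-type (-2.94 ± 0.34, adjusted p = 3.08e-06). Fst rose 2.33-fold between days 2 and 3 in the knock-out (1.22 ± 0.36, adjusted p = 0.0172) and 10.6-fold in the wild-type (3.402 ± 0.354, adjusted p = 7.85e-07). The knock-out's rise was no longer past the threshold without its day 2 replicate 2 (adjusted p = 0.0772) or its day 3 replicate 3 (adjusted p = 0.0578). At day 4 the knock-out libraries held 57.0, 39.6 and 68.7 CPM, a change of 0.42 ± 0.33 since day 3 (adjusted p = 0.477). The wild-type libraries of day 4 held 18.0, 32.1 and 46.9 CPM, a log2 fold change of -3.28 ± 0.35 since day 3 (adjusted p = 7.79e-07), and the groups overlapped. The difference between these changes was 3.70 ± 0.48 (adjusted p = 2.63e-05).

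The genotypes did not differ in Fst past the threshold at the other days. At day 4 the fold change was 0.77 ± 0.34 (adjusted p = 0.0679), and it passed without knock-out replicate 2 (adjusted p = 0.039) or wild-type replicate 3 (adjusted p = 0.016) and in DESeq2's Wald test (adjusted p = 0.0422). At day 2 the libraries held 20.4, 13.9 and 18.7 CPM in the knock-out, against 35.0, 32.0 and 22.4 CPM in the wild-type (-0.75 ± 0.37, adjusted p = 0.133; 0.0453 when only that day was fitted). At day 0 they held 35.6, 22.97 and 12.3 CPM in the knock-out, against 36.4, 57.5 and 44.7 CPM in the wild-type (-0.97 ± 0.35, adjusted p = 0.0591; 0.0166 without knock-out replicate 1 and 0.0233 in DESeq2's Wald test). In both genotypes the order of the day 0 libraries by Fst was the order of their fibroblast marker sums given above; the part of fibroblasts in the day 0 values was not tested. At days 3 and 4 the fibroblast sums were 33.3 to 68.8 CPM in the knock-out and 16.5 to 45.6 CPM in the wild-type. Over days 2 to 4 the difference between the genotypes' changes was 1.52 ± 0.50 (adjusted p = 0.0284). It was lost without knock-out replicate 2 of day 2, knock-out replicate 1 or 3 of day 4, wild-type replicate 1 or 2 of day 2 or wild-type replicate 1 or 2 of day 4, with adjusted p of 0.0513 to 0.0723.

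Tdgf1, the Nodal co-receptor gene, was higher in the knock-out at day 2 and lower at days 3 and 4. Its libraries of day 3 held 266, 265.5 and 256 CPM in the knock-out, against 827, 624 and 531 CPM in the wild-type. The groups were far from overlapping, and the knock-out stood at 39.7% of the wild-type (-1.33 ± 0.17, adjusted p = 8.22e-06). At day 2 the order had been the reverse, with 64.9, 67.2 and 48.4 CPM in the knock-out, against 38.9, 39.9 and 30.5 CPM in the wild-type (0.72 ± 0.19, adjusted p = 0.00708). Between these days Tdgf1 rose 4.36-fold in the knock-out (2.13 ± 0.18, adjusted p = 1.1e-07) and 18.1-fold in the wild-type (4.18 ± 0.20, adjusted p = 2.97e-11). The pseudogene Tdgf1-ps1 gave the same picture, with 4.13-fold in the knock-out and 18.7-fold in the wild-type, which is no independent measure where reads are shared. At day 4 Tdgf1 was at 364, 363 and 412.5 CPM in the knock-out, against 487, 539 and 541.5 CPM in the wild-type, without overlap. The fold change was then smaller (-0.46 ± 0.17, adjusted p = 0.0296), and the call was lost without knock-out replicate 1 or 2 or wild-type replicate 2 or 3 (adjusted p = 0.0743 to 0.0866) and without the filter on low counts (adjusted p = 0.0605). The difference in change between days 3 and 4 was 0.87 ± 0.24 (adjusted p = 0.013), and over days 2 to 4 it was -1.18 ± 0.25 (adjusted p = 0.00156). In stem cells the groups overlapped at 547 ± 134 CPM in the knock-out and 616 ± 65.96 CPM in the wild-type (-0.17, 95% interval -0.53 to 0.19). In the order of levels, wild-type cells of day 3, wild-type and knock-out stem cells and wild-type cells of day 4 stood highest, each overlapping its neighbour, and the day 2 groups stood lowest.

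Acvr2b, a type II receptor gene for Activins and Nodal, had group means of 53.2 to 57.9 CPM at days 2 to 4 and showed no change after day 2 past the threshold. It was at 29.9 ± 4.58, 57.9 ± 3.61, 53.5 ± 0.43 and 56.4 ± 3.09 CPM in the knock-out at days 0, 2, 3 and 4, against 25.8 ± 2.52, 57.6 ± 5.28, 53.2 ± 3.30 and 57.3 ± 3.60 CPM in the wild-type. All 6 groups of days 2 to 4 overlapped with their neighbours in the order of levels, and both day 0 groups lay below them. The change from day 0 to day 2 was 0.95 ± 0.09 in the knock-out (adjusted p = 2.66e-09) and 1.16 ± 0.09 in the wild-type (adjusted p = 7.03e-11). Between genotypes the 95% intervals were -0.18 to 0.19 at day 2, -0.17 to 0.19 at day 3 and -0.21 to 0.16 at day 4, so larger differences than these in Acvr2b transcripts lie outside the intervals. At day 0 it was 0.21 ± 0.09 (adjusted p = 0.114; adjusted p = 0.0148 without knock-out replicate 1).

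Foxh1, the DNA-binding partner of the Smads, differed between the genotypes at day 4. Its libraries of that day held 119, 111 and 108 CPM in the knock-out, against 162, 138.5 and 136 CPM in the wild-type. The groups did not overlap, and wild-type replicate 1 was the highest (-0.37 ± 0.06, adjusted p = 6.91e-06). At day 3 the knock-out's 118, 124 and 129 CPM lay just above the wild-type's 116, 111 and 116 CPM (0.12 ± 0.06, adjusted p = 0.113). At days 0 and 2 the means were within 1 CPM of each other, 32.8 ± 0.78 and 100.1 ± 1.21 CPM in the knock-out, against 32.9 ± 1.43 and 99.97 ± 4.04 CPM in the wild-type. Foxh1 thus stood near 100 CPM in both genotypes before Activin A was added, after a rise of 1.61 ± 0.06 in the knock-out and 1.60 ± 0.06 in the wild-type since day 0. Its rise from day 2 to 3 was small, at 0.31 ± 0.06 in the knock-out (adjusted p = 0.000253) and 0.19 ± 0.06 in the wild-type (adjusted p = 0.00975). Between days 3 and 4 it rose in the wild-type (0.35 ± 0.06, adjusted p = 2.17e-05) and not past the threshold in the knock-out (-0.14 ± 0.06, adjusted p = 0.135), a difference of -0.48 ± 0.08 (adjusted p = 9.12e-05). Over days 2 to 4 the difference was -0.37 ± 0.08 (adjusted p = 0.00105). The knock-out's rise from day 2 to day 4 (0.17 ± 0.06, adjusted p = 0.0217) was lost without replicate 1 or 2 of its day 2 or replicate 1 of its day 4 (adjusted p = 0.0511 to 0.126). Kifc2, which ends 28 bases from Foxh1 on the other strand, had nearly the same course (r = 0.993 over 24 libraries); whether reads of one were counted to the other is not known without the counting settings.

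Smad7, the inhibitory Smad gene (chromosome 18, 75367529 to 75395935, plus strand), was the 1 gene of the 8 that was higher in the knock-out at every day. At day 2 its libraries held 9.79, 9.28 and 6.89 CPM in the knock-out, against 5.85, 4.74 and 3.47 CPM in the wild-type (0.88 ± 0.17, adjusted p = 0.000591). At day 3 they held 102, 99.4 and 101 CPM in the knock-out, against 47.3, 51.4 and 59.96 CPM in the wild-type (0.93 ± 0.12, adjusted p = 2.03e-06). At day 4 they held 105, 97.1 and 98.4 CPM in the knock-out, against 43.5, 46.4 and 49.6 CPM in the wild-type (1.11 ± 0.12, adjusted p = 8.1e-08). The groups overlapped at none of these days, and the knock-out libraries of days 3 and 4 stood near 100 CPM, about the level of its stem cells. The rise from day 2 to 3 was 11.7-fold in the knock-out (3.54 ± 0.14, adjusted p = 1.08e-13) and 11.3-fold in the wild-type (3.49 ± 0.15, adjusted p = 2.43e-13), and the genotypes already differed at day 2, before Activin A was added. The difference in change was 0.18 (95% interval -0.17 to 0.52) between days 3 and 4. At day 0 the libraries held 91.3, 111 and 110 CPM in the knock-out, against 70.2, 87.0 and 90.6 CPM in the wild-type, and lay just apart (0.33 ± 0.12, adjusted p = 0.0462). That day 0 call was lost without knock-out replicate 2 or 3 or wild-type replicate 1 or 2 (adjusted p = 0.0606 to 0.252), with DESeq2's size factors (adjusted p = 0.0522), without the filter (adjusted p = 0.124) and when only day 0 was fitted (adjusted p = 0.0992).

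**Figure D4:**
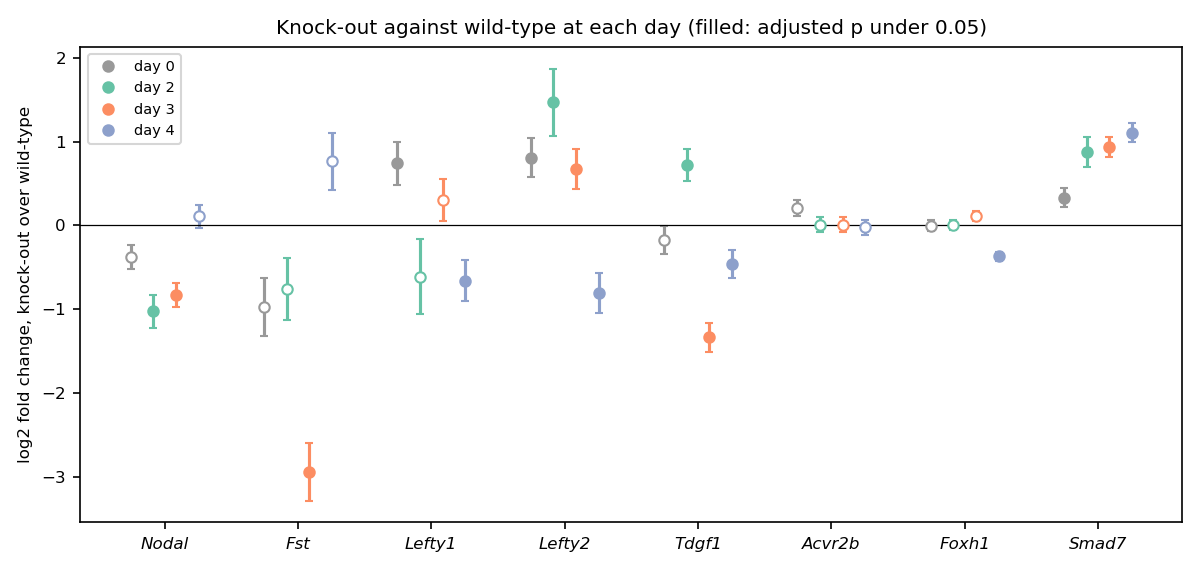
Log2 fold change of knock-out over wild-type (vertical) for each of the 8 genes at days 0, 2, 3 and 4 (colours); bars are the fold change's size over the root of F, and filled points passed the adjusted threshold. Smad7 is above 0 at each day, Fst is lowest at day 3 (-2.94), and Lefty2 changes side between day 3 (0.68) and day 4 (-0.81).

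Around these 8, a list of 50 further genes of the pathway was read off the same fits. Gdf1 and Inhbe were listed at 0 in all libraries, with the same limit as for Sox2, and Acvr1c had too few counts. The other 47 were tested. Knock-out against wild-type, 9 were higher and 9 lower at day 0, 8 and 14 at day 2, 12 and 17 at day 3, and 12 and 24 at day 4. Over all tested genes, 10.6% were higher and 10.5% lower at day 0, 16.2% and 15.7% at day 2, 20.8% and 20.5% at day 3, and 26.3% and 27.6% at day 4 (21.1%, 32%, 41.2% and 54% in either direction). Differences between roles were not tested, and the groups of 3 to 16 genes are described by their counts against these shares. Among 9 target genes of the streak and node, 0 were higher and 7 lower at day 0, and 1 and 7 at day 2. At day 3, 0 were higher and 9 lower, and at day 4, 1 and 8. Their median at day 3 was -3.88, against -0.01 over all tested genes. Eomes, Mixl1, Gsc, Lhx1, Wnt3 and Fgf8 are also among the primitive streak markers summed above, and Foxa2 is among the definitive endoderm markers. The target counts and the marker sums are thus not separate observations. Wnt3, a signal of the early streak, was at 16.2 ± 2.81 CPM in the knock-out and 84.1 ± 11.1 CPM in the wild-type at day 3 (-2.37 ± 0.16, adjusted p = 1.65e-10). Eomes, a T-box gene needed for endoderm, was at 32.9 ± 2.81 CPM in the knock-out and 486 ± 70.5 CPM in the wild-type at day 3 (-3.88 ± 0.23, adjusted p = 5.94e-10). Mixl1, a homeobox gene of mesendoderm, was at 1.85 ± 0.57 CPM in the knock-out and 180 ± 76.5 CPM in the wild-type (-6.60 ± 0.40, adjusted p = 1.07e-09). Nanog, a pluripotency factor that is also a target of the pathway, was lower in the knock-out at day 3 (-0.94 ± 0.09, adjusted p = 4.31e-08) and higher at day 4, at 249 ± 14.9 CPM in the knock-out and 111 ± 21.9 CPM in the wild-type (1.16 ± 0.09, adjusted p = 8.26e-10).

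Most of these targets rose in the knock-out as well once Activin A was given. From day 2 to day 3, 7 of the 9 rose in the knock-out, where 14.7% of all tested genes did, and 9 of 9 in the wild-type, where 21.4% did. Wnt3 rose by 6.55 ± 0.33 in the knock-out (adjusted p = 3.28e-12) and by 4.98 ± 0.20 in the wild-type (adjusted p = 3.16e-14). The knock-out's larger fold change rests on a very low day 2 level, 0.17 ± 0.03 CPM, against 2.66 ± 0.97 CPM in the wild-type. At day 3 the knock-out still held less Wnt3, at 16.2 CPM against 84.1 CPM. Mixl1 (1.42 ± 0.73) and Lhx1, which were the 2 that did not pass in the knock-out, were at 1.85 ± 0.57 and 0.40 ± 0.17 CPM at day 3. The difference between the genotypes' changes passed for 4 of the 9, with the knock-out's change above the wild-type's for 1 (6.61% of all tested genes) and below it for 3 (4.33% of all tested genes). The 3 were Nanog (-1.67 ± 0.13, adjusted p = 7.1e-08), Eomes (-2.80 ± 0.36, adjusted p = 4.87e-05) and Mixl1 (-4.46 ± 1.05, adjusted p = 0.00996). From day 3 to day 4, all 9 targets rose in the knock-out, where 5.76% of all tested genes did. In the wild-type 3 rose and 2 fell between these days, where 22.4% and 23.1% did. The difference passed with the knock-out's change above the wild-type's for 8 of the 9 and below it for 0, against 12.6% and 11.2% of all tested genes. It was 2.10 ± 0.13 for Nanog (adjusted p = 3.63e-10), which rose by 0.33 ± 0.09 in the knock-out and fell by 1.77 ± 0.09 in the wild-type. For Foxa2, a forkhead gene of endoderm and node, it was 3.21 ± 0.37 (adjusted p = 6.26e-06), and at day 4 that gene was at 52.5 ± 18.7 CPM in the knock-out and 152 ± 7.51 CPM in the wild-type. For Mixl1 it was 4.21 ± 0.50 (adjusted p = 1.02e-05), with 23.8 ± 10.8 CPM in the knock-out and 125 ± 9.33 CPM in the wild-type at day 4.

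Of 16 other inhibitors and feedback genes, 6 rose and 1 fell from day 2 to 3 in each genotype, and for 0 of the 16 did the difference between the genotypes' changes pass by edgeR. In that step 14.7% of all tested genes rose and 14.4% fell in the knock-out, and 21.4% and 21.1% did in the wild-type. For the difference 10.9% of all tested genes passed, so 0 of 16 is near that share. Cer1, 1 of the 16, was at 0 CPM at day 2 and 0.07 CPM at day 3 in the knock-out. For Cer1 the test of the difference could therefore decide little. Pmepa1, which encodes a membrane protein that holds back receptor-activated Smads, was at 72.6 ± 3.76 CPM at day 3 and 2.39 ± 0.23 CPM at day 2 in the knock-out (4.93 ± 0.24, adjusted p = 3.8e-11). In the wild-type it was at 97.4 ± 1.27 CPM at day 3 and 3.44 ± 1.04 CPM at day 2 (4.81 ± 0.23, adjusted p = 1.05e-11). By day 4 Pmepa1 was at 113 ± 5.07 CPM in the knock-out and 113 ± 8.06 CPM in the wild-type. Ldlrad4, of the same family, rose by 2.10 ± 0.26 in the knock-out and by 1.87 ± 0.29 in the wild-type, and at day 4 was higher in the knock-out (1.84 ± 0.23, adjusted p = 2.31e-07). Cer1, which encodes the secreted Nodal and BMP inhibitor Cerberus, was at 0.07 ± 0.09 CPM in the knock-out and 93.6 ± 78.8 CPM in the wild-type at day 3, and at 39.1 ± 23.7 CPM in the knock-out and 831 ± 30.4 CPM in the wild-type at day 4. Smad6, the inhibitory Smad of the BMP branch, was lower in the knock-out at day 4 (-2.58 ± 0.16, adjusted p = 3.54e-12), the opposite of Smad7.

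Of 6 tested receptor and co-receptor genes, 0 were higher and 4 lower in the knock-out at day 3, and 0 and 5 at day 4, where 20.5% and 27.6% of all tested genes were lower. The TGF-beta co-receptor gene Tgfbr3 (betaglycan) was at 6.09 ± 1.35 CPM in the knock-out and 123 ± 11.6 CPM in the wild-type at day 3 (-4.33 ± 0.39, adjusted p = 1.48e-07). Tgfbr1, a type I receptor gene of the TGF-beta branch, was at 66.9 ± 1.91 CPM in the knock-out and 99.2 ± 6.68 CPM in the wild-type at that day (-0.57 ± 0.07, adjusted p = 3.39e-07). Cfc1, the second EGF-CFC co-receptor gene beside Tdgf1, was at 0.0292 ± 0.0506 CPM in the knock-out and 3.10 ± 2.79 CPM in the wild-type at day 3 (adjusted p = 0.000111), and at 0.86 ± 0.42 CPM in the knock-out and 134 ± 25.4 CPM in the wild-type at day 4 (-7.26 ± 0.46, adjusted p = 3.82e-10). Acvr2a, the other type II receptor, had a log2 fold change of -0.27 ± 0.07 at day 3 (adjusted p = 0.00249) and -0.30 ± 0.07 at day 4 (adjusted p = 0.000418). Acvr1b, the type I Activin receptor gene (ALK4), did not pass at day 3, at 50.4 ± 1.27 CPM in the knock-out and 53.6 ± 1.74 CPM in the wild-type (-0.09 ± 0.10, adjusted p = 0.5), and was lower at day 4, at 55.2 ± 2.29 CPM in the knock-out and 82.8 ± 2.94 CPM in the wild-type (-0.58 ± 0.10, adjusted p = 2.11e-05). Among 7 Smads and co-factors, 4 were higher and 0 lower at day 3, where 20.8% and 20.5% of all tested genes were. The first by adjusted p was Trim33, which encodes a Smad-binding ubiquitin ligase, at 263 ± 4.62 CPM in the knock-out and 200.2 ± 10.2 CPM in the wild-type (0.40 ± 0.04, adjusted p = 1e-07). The others were Zfyve9, which encodes a Smad anchor (0.20 ± 0.05, adjusted p = 0.00359), Ep300, a histone acetyltransferase gene (0.50 ± 0.16, adjusted p = 0.017), and Smad2 (0.12 ± 0.05, adjusted p = 0.0473). Smad3 did not pass (-0.11 ± 0.10, adjusted p = 0.405), at 37.2 ± 1.63 CPM in the knock-out and 40.2 ± 1.26 CPM in the wild-type. Among the ligands, Gdf3, a Nodal co-ligand, was higher in the knock-out at day 3 (1.25 ± 0.18, adjusted p = 9.42e-06). Inhbb, an Activin subunit gene, was lower (-2.59 ± 0.42, adjusted p = 2.99e-05). Its levels at day 3 were low in both genotypes, at 0.24 ± 0.04 CPM in the knock-out and 1.43 ± 0.86 CPM in the wild-type.

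**Figure D5:**
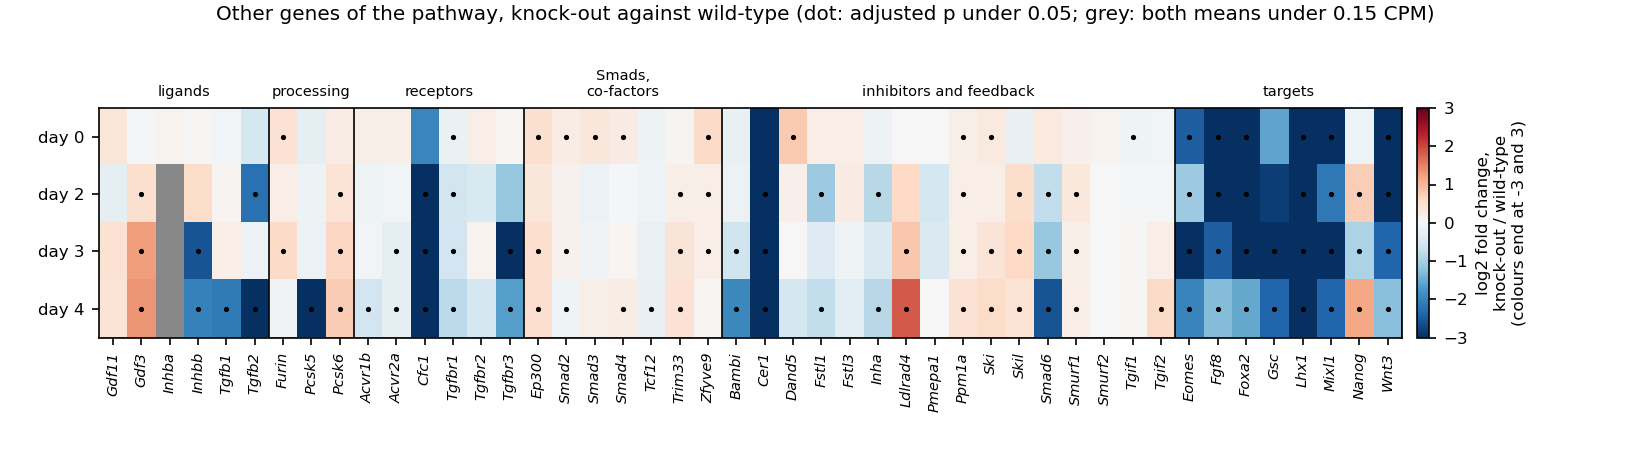
Log2 fold change of knock-out over wild-type (colour, cut at -3 and 3) for other tested genes of the pathway (columns, by role) at days 0, 2, 3 and 4 (rows); dots mark adjusted p under 0.05, and grey cells had both group means near 0 and were not called. Every target gene drawn is blue at day 3, lower in the knock-out, while the inhibitor and feedback block holds 5 higher and 3 lower at that day.

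Across the 24 libraries, Nodal, Lefty1, Lefty2, Tdgf1 and Smad7 were correlated with each other at r = 0.787 to 0.934 of log2 CPM, Foxh1 and Acvr2b with each other at 0.936, and Fst with any of the others at 0.605 or less. These values describe libraries that share 4 days and 2 genotypes. The genes most like each one, among those with a mean of at least 5 CPM, included other genes of the pathway. Pmepa1 was the most like both Nodal (r = 0.971) and Lefty1 (r = 0.964), and Smad7 and Lefty2 were among each other's 3 most alike (r = 0.934). Myc was among the 3 nearest to Nodal (r = 0.949) and to Tdgf1 (r = 0.933). Among the 3 nearest to Lefty1 was also Tmem63a (r = 0.939), which lies 3943 bases from it on chromosome 1. The nearest to Lefty2 was Epb41l1 (r = 0.96), to Smad7 Zfp827 (r = 0.966), to Foxh1 Igf2bp3 (r = 0.994), to Acvr2b Msi1 (r = 0.979) and to Fst Rtl8b (r = 0.948).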

How the data were processed

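Polyadenylated RNA of 24 libraries, 3 in each of 8 groups, was sequenced by the authors. The deposited table holds whole-number gene counts for 55401 genes, of which 2090 have a blank name and were read by their identifier. Per the submitters' processing notes, Trimmomatic, HISAT2 and the build GRCm38.p6 were used; the counting tool, annotation and strand setting are not stated there. From these counts, CPM were computed after TMM scaling, and genes passing edgeR's filter by group (17144) were fitted in 1 quasi-likelihood model over all 24 libraries (R 4.3.3, edgeR 4.0.16, limma 3.58.1), with 16 comparisons and Benjamini-Hochberg adjustment per comparison. Intervals cover 95%. Alternatives were DESeq2 1.42.0 size factors and Wald test, no filter, a block for replicate number, a fit restricted to the libraries of each comparison, and leaving out each library. Lengths and positions come from GENCODE M21 (GRCm38), promoters from RefSeq. CPM per length was used to compare genes. Total counts were 18531390 to 24244958 per library, so counting error is small except at the lowest levels. The 8 genes and all lists were chosen with earlier results of these data known. All 8 are named; other pathway genes are named as examples, starting from the lowest adjusted p in a comparison, and Acvr1b, Smad3, Cer1, Smad6 and Lhx1 were added for their role or count after their values were seen. For each of the 8 the 3 genes most correlated with it, with a mean of at least 5 CPM, were looked up. Some genes and a sequence are not reported here.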

Additional observations from a re-analysis of the deposited data

Results flagged for a closer look

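The difference between the genotypes' changes over an interval is knock-out minus wild-type on the log2 scale. It passed the interaction test of edgeR (adjusted p under 0.05) for 5 of the 8 genes in at least 1 interval. Of all tested genes, 7.34% passed over days 0 to 2, 10.9% over days 2 to 3, 23.8% over days 3 to 4 and 31.4% over days 2 to 4. The share passing in at least 1 interval was not counted. The difference for Tdgf1 was 0.89 over days 0 to 2 and -2.06 over days 2 to 3. It was 0.87 over days 3 to 4 and -1.18 over days 2 to 4, so its sign alternated from interval to interval. For Fst it was -2.19 over days 2 to 3, 3.70 over days 3 to 4 and 1.52 over days 2 to 4. For Lefty2 it was -1.48 over days 3 to 4 and -2.27 over days 2 to 4. For Nodal it was 0.94 over days 3 to 4 and 1.13 over days 2 to 4. For Foxh1 it was -0.48 over days 3 to 4 and -0.37 over days 2 to 4. Intervals that share a day share its libraries, so these values are not independent of each other.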

How the results depend on the processing

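Of 128 single-gene results, 77 were called, and 66 of these stayed called in the same direction under every alternative run. Genes called among the 8 changed in number as follows. Knock-out against wild-type at day 0, 3 higher and 0 lower became 1 higher with DESeq2 size factors, 1 higher without the filter, 0 higher and 1 lower with only the groups compared, and 2 lower in DESeq2's Wald test. At day 2, 2 were lower with only the groups compared. At day 3, 1 was higher without the filter and 1 in the Wald test. At day 4, 2 were higher in the Wald test and 2 lower without the filter. For the knock-out at day 4 against day 3, 3 were higher and 1 lower with only the groups compared, and 2 higher in the Wald test. For the change over days 0 to 2, 0 were higher without the filter, with the replicate block and with only the groups compared, and 2 were higher and 2 lower in the Wald test. With only the groups compared, all tested genes numbered 701 higher and 886 lower at day 0, 1922 higher and 1776 lower in the knock-out at day 4 against day 3, 322 lower for the change over days 0 to 2 and 1727 higher for that over days 2 to 3; the cause was not tested.

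Values near 0 turned sign: Foxh1 (-0.01) and Acvr2b (-0.005) at day 2 with only the groups compared, and without the filter Smad7 in the knock-out at day 4 against day 3 (0.003) and the Acvr2b change over days 2 to 3 (-0.0).

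Leaving out 1 library, the 8 gave 0 to 4 higher and 0 to 1 lower at day 0, 1 to 2 higher at day 3, 1 to 2 higher and 2 to 3 lower at day 4, 0 to 1 higher and 0 to 2 lower for the change over days 0 to 2, and 1 to 2 higher for that over days 2 to 4. All tested genes gave 1155 to 1880 higher at day 0, 498 to 753 higher and 564 to 756 lower in the knock-out at day 4 against day 3, and 485 to 872 higher and 246 to 773 lower for the change over days 0 to 2. Between genotypes, Foxh1 ranged from -0.035 to 0.019 at day 0 and -0.014 to 0.038 at day 2, and Acvr2b from -0.065 to 0.052 at day 2, -0.039 to 0.047 at day 3 and -0.072 to 0.022 at day 4. Day 4 against day 2, Acvr2b ranged from -0.076 to 0.015 in the knock-out and -0.081 to 0.044 in the wild-type, and Fst from -0.254 to 0.407 in the wild-type. Smad7 ranged from -0.039 to 0.013 in the knock-out at day 4 against day 3. The difference in change ranged for Foxh1 from -0.019 to 0.04 and for Fst from -0.091 to 0.63 over days 0 to 2, for Acvr2b from -0.047 to 0.075 and for Smad7 from -0.144 to 0.23 over days 2 to 3, for Acvr2b from -0.082 to 0.018 over days 3 to 4, and for Acvr2b from -0.08 to 0.045 and Lefty1 from -0.373 to 0.312 over days 2 to 4.

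The replicate numbers did not pair the libraries: correlations of same-numbered libraries' deviations were -0.15 to 0.165 (median 0.0214), and 0 of 28 group pairs had all above 0.1. With the replicate block, Smad7 at day 0 (adjusted p = 0.0542) and the Tdgf1 change over days 0 to 2 (adjusted p = 0.0579) were no longer called, and no other call among the 8 changed. Levels of Lefty1 and Lefty2 at day 2 rest on few counts, and the near copies limit both genes and Tdgf1.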
